A study of Mus musculus with 10 samples.

Results

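The genes described here are those of MHC class I antigen presentation in primary cultures of mouse tongue epithelium. They are 9 genes fixed by name: the heavy chains H2-K1 and H2-D1, the light chain B2m, the peptide transporter subunits Tap1 and Tap2, the loading factor Tapbp, and the immunoproteasome subunits Psmb8, Psmb9 and Psmb10. All 9 were among the 18586 rows of the deposited expression table, where each gene is given by its symbol in TPM, a transcript's share of the library scaled to its length. RNA had been sequenced from cells isolated at day 15 after transgene induction, sorted for GFP and cultured, to ask what the oncogenic transgenes change in oral epithelial progenitor cells. Both genotypes carried Krt14-CreERT, a tamoxifen-inducible Cre driven in keratin 14 cells, with the transactivator LSL-rtTA and the reporter tetON_H2B-GFP. The EY genotype had in addition tetON_E6-E7 and tetON_YAP1S127A, which allow HPV16 E6-E7 and a constitutively active YAP1 to be switched on together, and the N genotype had neither oncogene. Both genotypes received tamoxifen in the tongue and doxycycline, and the culture medium kept doxycycline, EGF and cholera toxin. The EY group held 6 libraries: replicates 1 and 4 were of culture line EY3960, replicates 2 and 5 of EY4028, and replicates 3 and 6 of EY4174. The 4 N libraries all came from 1 line, N4172, so genotype and line cannot be told apart, and p-values measure the spread among libraries, of which several share a culture. The age of the animals was not given per sample.

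Nucleated cells display peptides of their own proteins on class I molecules, which CD8 T cells inspect. The proteasome cuts proteins into peptides, the TAP1-TAP2 transporter carries them into the endoplasmic reticulum, and tapasin (Tapbp) holds an empty heavy chain and beta-2-microglobulin (B2m) near the transporter until a peptide fits. Interferon gamma raises most of these genes together and brings in the subunits Psmb8, Psmb9 and Psmb10, which replace Psmb5, Psmb6 and Psmb7 in the proteasome. Loss of this machinery is a known route by which squamous carcinomas of the head and neck escape T cells.

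The cultures expressed the epithelial markers they were expected to carry by their label, and very little of those markers of other cell types that had a row. The summed level of 10 epithelial markers was between 5589 and 8018 TPM in EY and between 6280 and 6836 TPM in N. Within that sum, EY and N did not overlap for Krt15, Trp63 and Epcam, and the other markers overlapped. Krt15 read 8.70 to 35.3 TPM in EY and 64.3 to 97.9 TPM in N. Trp63 read 46.0 to 60.5 TPM in EY and 70.8 to 99.9 TPM in N. Epcam was higher in EY, at 53.1 to 63.3 TPM against 29.3 to 38.3 TPM in N. Over all genes tested, the groups did not overlap for 20.4%. Of 13 immune markers, 5 were among the rows, and their sum was between 0.206 and 0.605 TPM in EY and between 0.258 and 0.574 TPM in N. The markers Cd74, H2-Aa, Ciita, Lyz2, Tyrobp, Cd3e, Itgam and Cd207 were looked for and had no row, so their levels could not be read. The highest single immune marker reached 0.389 TPM, against more than 100 TPM for class I heavy chains in EY. The heavy chain levels were thus measured beside near-zero levels of the 5 immune markers with a row. The fibroblast sum stayed at or below 0.748 TPM, the endothelial sum at or below 0.606 TPM and the muscle sum at or below 0.933 TPM. The melanocyte sum was between 0.458 and 1.23 TPM in EY and between 1.29 and 3.44 TPM in N, and the part of such cells in any result was not tested. Each library held between 10852 and 11522 genes at 1 TPM or more, mitochondrially encoded genes took 14.1% to 20.5% of TPM, and sequencing depth is unknown because TPM keeps no counts. Yap1 read 34.7 to 57.1 TPM in EY and 17.2 to 20.9 TPM in N, in the direction of the label. The study's primers for the transgene are named for human YAP1, and this row has the mouse symbol. Whether it reads the transgene, the mouse gene or both is unknown. N replicate 4 stood apart in endoplasmic reticulum chaperones, as given with those genes.

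The members' upstream sequences are shown for the pair of genes that differed between the genotypes (H2-K1 and H2-D1), for their partner B2m, and for Tap1, which was scarce in both groups. Each line gives the 200 bases before a start site, 5′ to 3′ on the gene's strand, from RefSeq on GRCm38.p6, with motif matches in capitals. A promoter window was matched for 8 of the 9 members, all but Tap2. The H2-K1 window lies at chr17:34000348-34000547 on the minus strand (the first of 2 annotated starts, 14 bases apart), the H2-D1 window at chr17:35262894-35263093 on the plus strand, the B2m window at chr2:122147487-122147686 on the plus strand, and the Tap1 window at chr17:34187356-34187555 on the plus strand.
H2-K1: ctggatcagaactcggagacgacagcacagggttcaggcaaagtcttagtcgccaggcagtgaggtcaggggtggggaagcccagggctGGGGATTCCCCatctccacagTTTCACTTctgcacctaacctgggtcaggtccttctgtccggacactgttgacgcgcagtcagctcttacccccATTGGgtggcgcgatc
H2-D1: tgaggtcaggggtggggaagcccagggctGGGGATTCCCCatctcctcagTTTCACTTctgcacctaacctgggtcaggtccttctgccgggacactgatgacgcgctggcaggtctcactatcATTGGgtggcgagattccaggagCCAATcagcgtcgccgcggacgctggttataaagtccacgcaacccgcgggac
B2m: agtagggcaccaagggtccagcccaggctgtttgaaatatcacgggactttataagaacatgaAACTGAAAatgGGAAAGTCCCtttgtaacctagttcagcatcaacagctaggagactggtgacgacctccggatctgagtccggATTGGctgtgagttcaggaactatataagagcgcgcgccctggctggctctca
Tap1: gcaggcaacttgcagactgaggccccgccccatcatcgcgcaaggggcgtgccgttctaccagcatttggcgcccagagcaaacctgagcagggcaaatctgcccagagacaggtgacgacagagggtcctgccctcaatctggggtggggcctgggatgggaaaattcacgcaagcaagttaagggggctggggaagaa

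The capitals mark matches, on either strand, to the interferon regulatory factor core AANNGAAA, to the kappaB consensus and to the CCAAT box. In H2-K1 and H2-D1 the kappaB matches on the 2 strands, and a pair shifted by 1 base, overlap each other in the capitals read as GGGGATTCCCC, with 10 bases between them and the interferon regulatory factor core. In B2m the order is turned, with the core AACTGAAA before the kappaB match GGAAAGTCCC. The core was found in 3 of 8 members with a window (B2m, H2-D1 and H2-K1), against 17.0% of 32851 windows of the same length genome-wide. The kappaB consensus was found in the same 3 members, against 3.2% of windows. CCAAT was found in 5 of 8 members, against 29.3% of windows. The TEAD core GGAATG, the site of the DNA-binding partners of YAP, was found in 0 of 8, against 10.1%. These are matches of letters and show no binding. The whole RefSeq windows are 300 bases long and reach past the start site, beyond the 200 bases shown. Those of H2-K1 and H2-D1 were 88.3% identical over 239 aligned bases. Tap1 and Psmb9 run in opposite directions from starts 226 bases apart, and their whole windows share 275 bases.

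The members covered more than 3 orders of magnitude in level and fell into an abundant and a scarce set. TPM is scaled to transcript length, so levels can be set side by side between genes. B2m was highest in all 10 libraries, from 196 to 296 TPM. H2-D1 and H2-K1 came next and were not separated from each other, with 133 ± 7.54 and 130 ± 7.42 TPM in EY (SD over 6 libraries), and 97.6 ± 8.0 and 88.1 ± 6.37 TPM in N (SD over 4). The ratio of H2-K1 to H2-D1 within a library was between 0.818 and 1.03. Psmb10 followed at 52.2 to 75.8 TPM and Tapbp at 4.60 to 9.88 TPM, each clear of its neighbours in that order. Tap1 lay at 1.25 to 2.79 TPM and overlapped Psmb9, at 0.561 to 1.78 TPM. Psmb9 in turn overlapped Tap2, at 0.227 to 0.839 TPM, and Tap2 overlapped Psmb8, at 0.0321 to 0.403 TPM.

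The 4 lowest members are neighbours in the genome. In the GENCODE annotation of GRCm38, Psmb9 (chr17:34181987-34187764), Tap1 (chr17:34187553-34197225), Psmb8 (chr17:34197721-34201454) and Tap2 (chr17:34203527-34216321) are the only 4 protein-coding genes of a 34.3 kb span of the MHC, which holds 6 genes in all. Psmb9 and Tap1 overlap at their starts on opposite strands, and the noncoding genes Gm20496 and Gm15821 lie antisense to Psmb8 and Tap2. Whether the counting used strand is not given in the sources used here, so reads from such overlaps may be shared. H2-K1, H2-D1 and Tapbp lie on the same chromosome, for 7 members in all, with B2m on chromosome 2 and Psmb10 on chromosome 8.

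**Figure D1:**
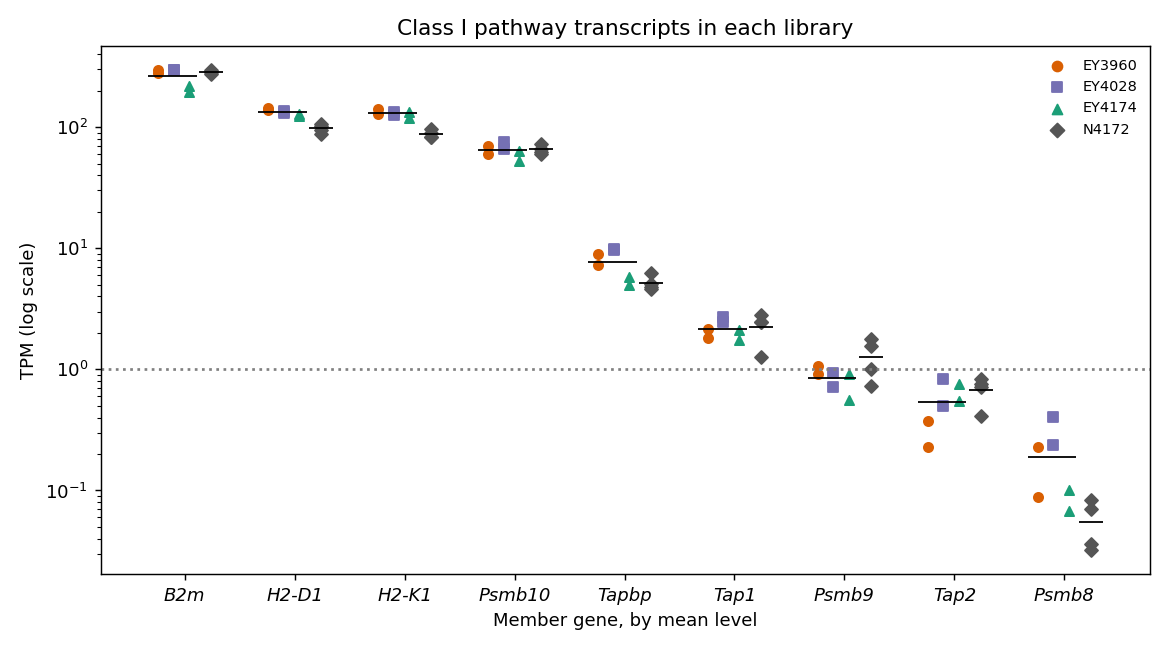
Level of each member in TPM on a log axis, with 1 point per library coloured by culture line, short black lines at the EY and N means, and a dotted line at 1 TPM. B2m, H2-D1, H2-K1 and Psmb10 lie above 50 TPM in every library, Tap2 and Psmb8 below 1 TPM in every library, and the EY points lie above all N points for H2-D1 and H2-K1 alone.

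Of the 9 members, 7 had at least 1 TPM in at least 4 libraries and entered the limma test over 11630 genes, and Tap2 and Psmb8 did not. Psmb9 passed narrowly, with 1 EY and 3 N libraries at or above 1 TPM. None of the 7 was called between EY and N at an adjusted p under 0.01 with a log2 fold change beyond 1, where 3.55% of all genes tested were. At an adjusted p under 0.01 alone, 2 members passed, both higher in EY, where 11.8% of all genes passed in either direction and 6.84% were higher. At an unadjusted p under 0.05 there were 3 members, the third being Tapbp. EY and N libraries did not overlap for 2 of the 7 members tested, H2-K1 and H2-D1, against 20.4% of genes tested. With so few genes, 2 of 7 cannot be told apart from that share. The groups overlapped for the untested Tap2 and Psmb8. The median log2 fold change of the 7 members was -0.01, beside 0.03 for all genes tested.

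The classical heavy chains, which bind and present the peptide, were more abundant in EY than in N, by 1.48-fold for H2-K1 and 1.37-fold for H2-D1 in mean TPM. H2-K1 read 142, 132, 120, 128, 126 and 134 TPM in EY replicates 1 to 6. The N replicates 1 to 4 gave 83.3, 83.3, 89.1 and 96.7 TPM. Every EY library was above every N library. The log2 fold change was 0.56 (SE 0.07), with an adjusted p of 0.000205 by limma. By line it was 0.61 in EY3960, 0.55 in EY4028 and 0.52 in EY4174, with adjusted p-values of 0.000422, 0.00103 and 0.00158, and the 3 EY lines did not differ past the threshold (largest difference 0.09, adjusted p 0.758).

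H2-D1 read 144, 136, 123, 139, 131 and 129 TPM in EY replicates 1 to 6. N replicates 1 to 4 stood at 102, 87.5, 95.4 and 106 TPM. Again the groups did not overlap, with the lowest EY library, a library of EY4174, nearest to N. The log2 fold change was 0.45 (SE 0.07), with an adjusted p of 0.00110 by limma, and by line it was 0.53, 0.45 and 0.37 in EY3960, EY4028 and EY4174 (adjusted p 0.000810, 0.00271 and 0.00847). The EY lines did not differ past the threshold (largest difference 0.17, adjusted p 0.421). Both calls rest on treating libraries as independent. With line as a random block the adjusted p was 0.0172 for H2-K1 and 0.0468 for H2-D1, and on 1 mean per line, which leaves N with a single value, it was 0.258 and 0.379. H2-K1 and H2-D1 also share sequence with each other and with other class I genes: 22.8% of the 31-base words of H2-K1 transcripts and 26.7% of those of H2-D1 occur in other genes, so how reads were divided among them is uncertain.

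The light chain B2m, which pairs with the class I heavy chains, did not follow the heavy chains. B2m read 294, 294, 220, 280, 296 and 196 TPM in EY replicates 1 to 6. In N replicates 1 to 4 it read 286, 286, 276 and 294 TPM. The 4 libraries of EY3960 and EY4028 lay within or just beyond the N range, and the 2 libraries of EY4174 lay below every other library. Over all EY libraries the log2 fold change was -0.14 (SE 0.12, adjusted p 0.446 by limma). By line it was 0.01 in EY3960 (adjusted p 0.950), 0.05 in EY4028 (adjusted p 0.644) and -0.46 in EY4174 (SE 0.07, adjusted p 0.000739). The EY lines differed by up to 0.51 on the log2 scale, with an adjusted p of 0.00193 in the F test between lines. None of B2m's 31-base words occurs in another gene.

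Between single lines and N, 0 of the 7 members were called with a log2 fold change beyond 1, against 7.04% of genes for EY3960, 5.74% for EY4028 and 4.95% for EY4174. At an adjusted p under 0.01 alone, 2 members passed in EY3960 (H2-K1 and H2-D1), 3 in EY4028 (with Tapbp) and 3 in EY4174 (with B2m), where 17.0%, 16.7% and 15.6% of genes passed in either direction. These contrasts share the N libraries. Between the EY lines, B2m was the only member of the 7 at an adjusted p under 0.01 (8.55% of genes), and 0 were called with a pair of lines beyond 1 (5.12%).

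The balance of heavy to light chain transcripts therefore differed between the groups without overlap. The sum of H2-K1 and H2-D1 over B2m was 1.02 ± 0.175 in EY (SD over 6 libraries) against 0.650 ± 0.0389 for the 4 N libraries, a ratio of TPM given as a description. It averaged 0.961 in EY3960, 0.889 in EY4028 and 1.22 in EY4174. In the first pair of lines the ratio was above N through the heavy chains alone, and in EY4174 the lower B2m added to it.

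**Figure D2:**
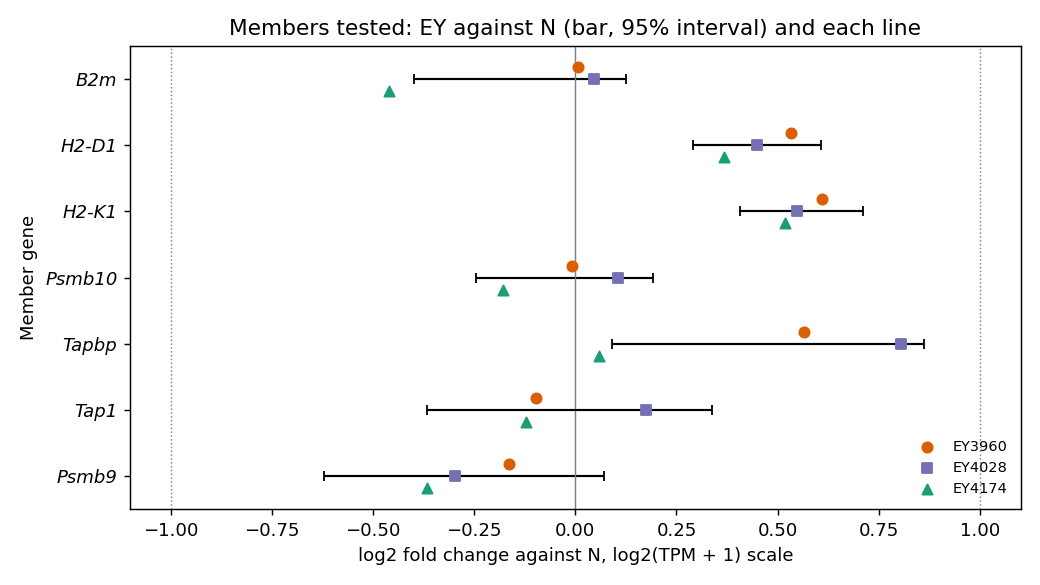
Log2 fold change against N for the 7 members tested, on the log2(TPM + 1) scale, with the EY estimate's 95% interval as a bar and each EY line's estimate as a coloured point; dotted lines mark a log2 fold change of 1 in either direction. H2-K1 and H2-D1 lie right of 0 in every line, Tapbp spreads from 0.06 to 0.81, and B2m is near 0 in EY3960 and EY4028 and at -0.46 in EY4174.

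Peptide transport transcripts were scarce in both groups, and no difference was found. Tap1, which forms the transporter with Tap2, read 1.80, 2.46, 2.10, 2.15, 2.72 and 1.74 TPM in EY replicates 1 to 6. The N replicates 1 to 4 gave 2.44, 2.47, 2.79 and 1.25 TPM. N replicate 4 was the lowest library of all, and the remaining N libraries lay in or just above the upper part of the EY range. The log2 fold change was -0.01, with a 95% interval from -0.37 to 0.34 (adjusted p 0.960 by limma), on the log2(TPM + 1) scale, which compresses changes at such low levels. Without N replicate 4 it was -0.18 (adjusted p 0.343). Tap2 read 0.378, 0.499, 0.547, 0.227, 0.838 and 0.764 TPM in EY and 0.716, 0.409, 0.760 and 0.839 TPM in N. It stayed under 1 TPM in every library, the groups overlapped, and it was not tested.

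Tapasin was higher in EY4028 than in N, and the other lines did not pass the threshold. Tapbp read 8.94, 9.60, 5.81, 7.33, 9.88 and 5.01 TPM in EY replicates 1 to 6. N replicates 1 to 4 stood at 5.07, 4.81, 4.60 and 6.23 TPM. The 4 libraries of EY3960 and EY4028 lay above every N library, and the 2 libraries of EY4174 lay within the N range. Over all EY libraries the log2 fold change was 0.48 (SE 0.18), which missed the threshold with an adjusted p of 0.0684 by limma. By line it was 0.81 in EY4028 (SE 0.14, adjusted p 0.00164), 0.57 in EY3960 (adjusted p 0.0111) and 0.06 in EY4174 (adjusted p 0.784). The EY lines differed by up to 0.75, with an adjusted p of 0.0200 between lines, above the threshold of 0.01. Without EY4174 the EY log2 fold change was 0.69 (adjusted p 0.00341). EY4174 was thus the lowest EY line for both B2m and Tapbp. Its mean TPM was also the lowest of the EY lines for every other member but Tap2, in part by small margins. Of the members tested, only B2m differed between the EY lines at an adjusted p under 0.01. The share of all genes that were lowest in EY4174 was not computed, so no trait of the members is read from this order.

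The immunoproteasome subunits differed from one another far more than between genotypes. Psmb10, the subunit that replaces Psmb7, read 69.9, 75.8, 52.2, 60.4, 65.4 and 63.6 TPM in EY replicates 1 to 6. In N replicates 1 to 4 it read 62.7, 66.3, 60.5 and 72.6 TPM. The groups overlapped over most of their range, and the log2 fold change was -0.03 with a 95% interval from -0.25 to 0.19 (adjusted p 0.872 by limma).

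Psmb9, which replaces Psmb6, read 0.915, 0.709, 0.919, 1.07, 0.932 and 0.561 TPM in EY replicates 1 to 6. The N replicates 1 to 4 gave 1.78, 1.57, 0.734 and 1.01 TPM. N replicates 1 and 2 were above all EY libraries and the others were among them, with a log2 fold change of -0.28 (SE 0.16, adjusted p 0.230 by limma). Psmb8, which replaces Psmb5, read 0.0875, 0.403, 0.0683, 0.230, 0.236 and 0.101 TPM in EY and 0.0321, 0.0837, 0.0359 and 0.0699 TPM in N. All EY libraries but the lowest, of EY4174, were above all N libraries, at levels below the filter of the limma fit.

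Set against its constitutive counterpart within each library, no immunoproteasome subunit shifted past the threshold. The ratio of Psmb10 to Psmb7 was 19.7% ± 2.47 in EY (SD over 6 libraries) against 23.8% ± 3.16 for the 4 N libraries. The ratio of Psmb9 to Psmb6 was 0.209% ± 0.0522 in EY and 0.373% ± 0.152 in N, and that of Psmb8 to Psmb5 was 0.0734% ± 0.0570 in EY and 0.0202% ± 0.00986 in N. Psmb10 was thus the only one of the 3 above 1% of its counterpart. The log2 ratio, EY minus N, was -0.27 for Psmb10, -0.78 for Psmb9 and 1.62 for Psmb8. With 1 TPM added to both genes, the value for Psmb8 was 0.19 (adjusted p 0.305 by the same exact permutation test), so its size rests on levels far below 1 TPM. Two-sided exact permutation tests over libraries (210 arrangements, smallest possible p 0.00476) gave p = 0.0476, 0.0524 and 0.0476, and an adjusted p of 0.0524 for each of the 3 ratios. Psmb5 shares 71.7% of its 31-base words with other genes, mostly pseudogenes, so its level is uncertain.

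**Figure D3:**
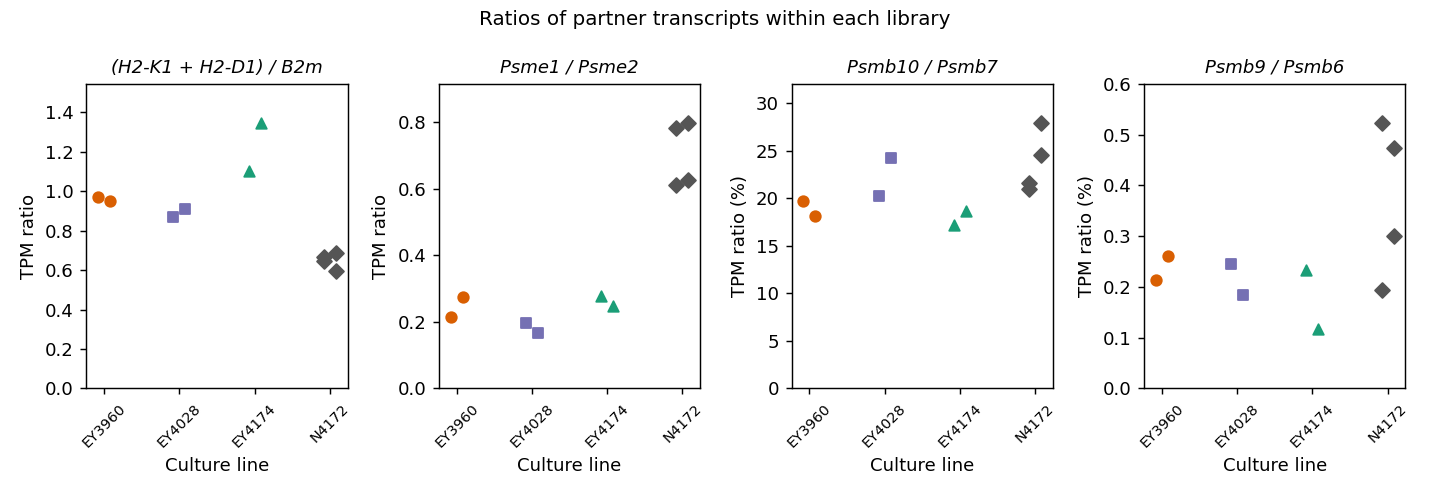
TPM ratios of partner genes within each library, 1 panel per ratio, with 1 point per library grouped by culture line and each axis starting at 0. The heavy to light chain ratio is higher in all EY libraries than in N, Psme1 over Psme2 is lower in all EY libraries, and the Psmb10 to Psmb7 and Psmb9 to Psmb6 percentages overlap between the groups.

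Other genes of the pathway were taken from 6 lists with 58 genes. The table held 52 of them, and 43 passed the filter. Of the 43, 0 were called higher and 1 was called lower in EY, beside 3.55% of all genes called. At an adjusted p under 0.01 alone 4 were higher and 2 lower, beside 11.8% of all genes in either direction, so these shares lie near those of all genes. Their median log2 fold change was 0.14, beside 0.03 for all genes tested. The gene called was Psme1, a subunit of the PA28 activator that caps the proteasome and is induced by interferon gamma together with its partner Psme2.

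Psme1 was about 3 times lower in EY than in N, while Psme2 did not change past the threshold. Psme1 read 11.8, 9.18, 11.4, 14.6, 10.002 and 12.2 TPM in EY replicates 1 to 6. N replicates 1 to 4 stood at 31.6, 29.2, 33.9 and 52.9 TPM. Every EY library was below every N library, and N replicate 4 was well above the other N libraries. The log2 fold change was -1.57 (SE 0.16, adjusted p 5.64e-05 by limma) and -1.39 without N replicate 4 (adjusted p 6.19e-05). It was called in each line, at -1.38 in EY3960, -1.80 in EY4028 and -1.53 in EY4174, and with line as a random block the adjusted p was 0.00561, although on 1 mean per line it was 0.103.

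Psme2 read 40.8 to 55.6 TPM in EY and 43.3 to 66.5 TPM in N, with a log2 fold change of -0.03 (95% interval from -0.29 to 0.24, adjusted p 0.904 by limma). The ratio of Psme1 to Psme2, subunits of the same ring, was 0.230 ± 0.0450 in EY (SD over 6 libraries) against 0.704 ± 0.0992 for the 4 N libraries, with no overlap. Psme1 shares 9.5% and Psme2 33.5% of 31-base words with other genes, in the case of Psme2 mainly with its copy Psme2b. The genes lie near each other on chromosome 14 (Psme1 at chr14:55578123-55581529 and Psme2 at chr14:55587441-55591113, GRCm38).

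The constitutive catalytic subunits were among the most abundant transcripts of the pathway. Psmb5 read 228 to 309 TPM in EY and 257 to 296 TPM in N, with a log2 fold change of -0.03 (adjusted p 0.865 by limma). Psmb6 read 380 to 478 TPM in EY and 330 to 377 TPM in N (log2 fold change 0.25, adjusted p 0.0318). Psmb7 read 303 to 354 TPM in EY and 260 to 290 TPM in N (log2 fold change 0.24, adjusted p 0.0199). For Psmb6 and Psmb7 the groups did not overlap, but neither passed the threshold of 0.01.

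Among 7 peptidases that trim or destroy peptides, 1 was higher at an adjusted p under 0.01 and 0 were lower. Of all genes tested, 6.84% were higher and 11.8% passed in either direction, so 1 of 7 is near those shares. The peptidase that passed, Blmh (bleomycin hydrolase, named after its values were seen), read 72.6 to 86.1 TPM in EY and 54.9 to 63.7 TPM in N (log2 fold change 0.39, adjusted p 0.00300 by limma). Erap1, the aminopeptidase that trims peptides inside the endoplasmic reticulum, read 6.57 to 17.3 TPM in EY and 11.6 to 15.3 TPM in N (log2 fold change -0.26, adjusted p 0.483). Both EY4174 libraries of Erap1, at 6.57 TPM each, were below every other library.

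Of 7 chaperones and folding enzymes of the loading step, 0 passed at an adjusted p under 0.01 over all libraries, where 11.8% of all genes did. Without N replicate 4, 2 of them passed, both higher, where 871 of 11630 genes were higher and 596 lower. Calr, which holds the heavy chain in the loading complex, read 368, 388, 290, 388, 385 and 286 TPM in EY replicates 1 to 6. In N replicates 1 to 4 it read 182, 171, 188 and 702 TPM. All EY libraries lay above N replicates 1 to 3 and below N replicate 4. The log2 fold change was 0.46 (SE 0.37, adjusted p 0.416 by limma) and 0.95 without N replicate 4 (SE 0.12, adjusted p 0.000319). Hspa5, the stress-induced chaperone of the endoplasmic reticulum (named after its values were seen), had the same shape, at 317 to 427 TPM in EY, 158 to 168 TPM in N replicates 1 to 3 and 728 TPM in N replicate 4. Its log2 fold change was 0.62 (adjusted p 0.315) and 1.16 without N replicate 4 (adjusted p 5.80e-05). Canx read 292 to 348 TPM in EY and 281 to 341 TPM in N (log2 fold change 0.07, adjusted p 0.586), and Pdia3, the disulphide enzyme of the complex, 294 to 390 TPM in EY and 309 to 434 TPM in N (log2 fold change -0.01, adjusted p 0.905). Whether the pattern of N replicate 4 has a part in other results was not tested, and the H2-K1 and H2-D1 values without it were 0.60 and 0.49 (adjusted p 0.000160 and 0.000903).

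The other class I heavy chains were scarce and did not move as one. Of 19 listed, 14 were in the table and 6 were tested, with 1 higher and 1 lower at an adjusted p under 0.01. Of all genes tested, 6.84% were higher and 11.8% passed in either direction. With 6 genes tested, these counts cannot be told apart from those shares. The genes of this paragraph were named after their values were seen. H2-Q4, a non-classical chain, read 5.16 to 7.51 TPM in EY and 3.31 to 4.35 TPM in N (log2 fold change 0.56, adjusted p 0.00743 by limma). Of the 31-base words of H2-Q4, 38.4% occur in other genes, among them the far more abundant H2-D1 and H2-K1. Its separate level is thus uncertain, and the part of such shared reads in its difference was not tested. H2-T10 read 1.44 to 3.15 TPM in EY and 3.91 to 5.68 TPM in N, with a log2 fold change of -0.77 (adjusted p 0.00408) and, without N replicate 4, of -0.70 (adjusted p 0.0119). H2-T22 read 4.66 and 4.73 TPM in the libraries of EY4028, against 0.214 to 0.837 TPM in the other EY libraries and 0.845 to 1.69 TPM in N. For H2-T22 the EY lines differed by up to 2.11 on the log2 scale (adjusted p 0.000115 between lines). H2-T10 and H2-T22 share 47.6% of the 31-base words of H2-T10, so their separate levels are uncertain. The MR1 and CD1d chains, which present microbial metabolites and lipids, read at most 0.125 and 0.273 TPM in EY, and 0.688 to 1.00 TPM and 0.426 to 0.905 TPM in N. Mr1 and Cd1d1 were below the filter and not tested.

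Of 15 transcription regulators tested, 2 were higher at an adjusted p under 0.01 and 0 were lower, where 6.84% of all genes were higher. Without N replicate 4, 2 were higher and 1 lower, where 871 of 11630 genes were higher and 596 lower. The regulator that was lower there was the NF-Y subunit Nfyb at -0.31 (adjusted p 0.00854 by limma, named after its values were seen). Irf1, the interferon-induced factor that binds the interferon regulatory factor site of class I promoters, read 10.5, 14.7, 11.1, 11.4, 15.5 and 11.9 TPM in EY replicates 1 to 6. The N replicates 1 to 4 gave 7.32, 7.69, 8.12 and 6.68 TPM. Every EY library was above every N library, and EY4028 was the highest line. The log2 fold change was 0.66 (SE 0.12, adjusted p 0.00240 by limma), at 0.50 in EY3960, 0.93 in EY4028 and 0.56 in EY4174. With line as a random block its adjusted p was 0.0469, and on 1 mean per line 0.419. Nfyc, a subunit of the CCAAT-binding NF-Y (named after its values were seen), read 54.6 to 76.6 TPM in EY and 41.1 to 48.8 TPM in N (log2 fold change 0.47, adjusted p 0.00743).

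Nlrc5, the class I transactivator, was listed at 0 to 0.348 TPM in EY and 0.122 to 0.801 TPM in N, below the filter in both.

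**Figure D4:**
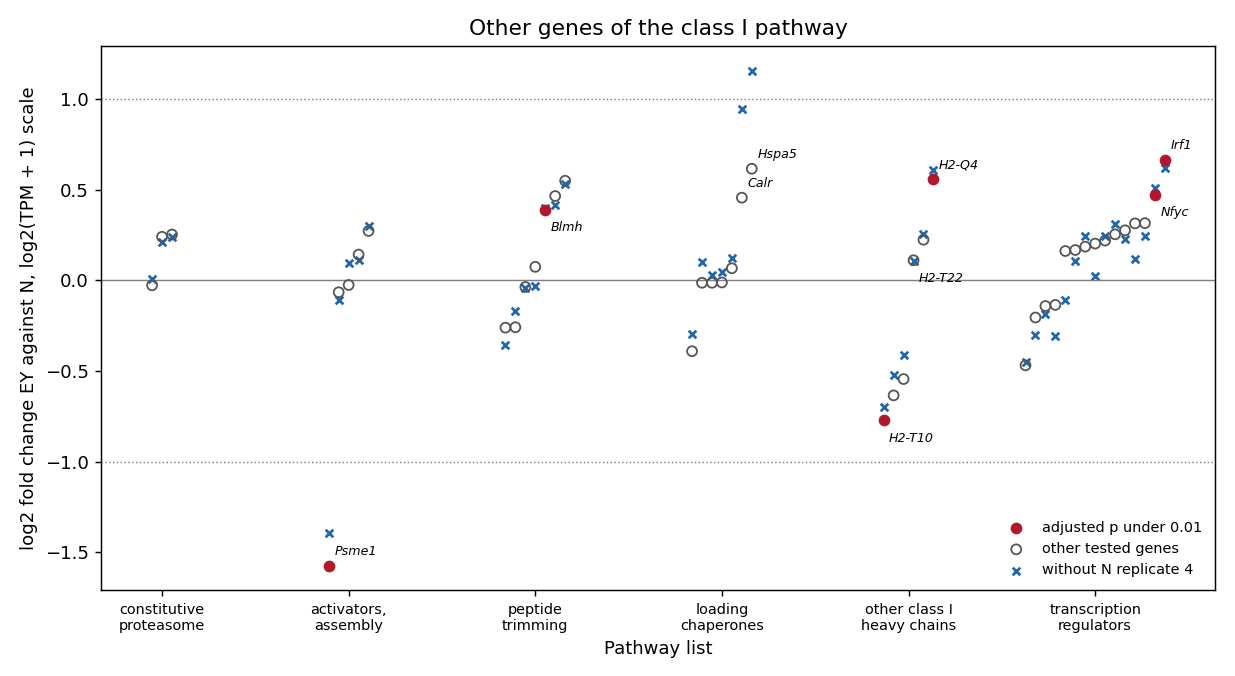
Log2 fold change of EY against N on the log2(TPM + 1) scale for the 43 other pathway genes tested, in 6 lists, with filled points at an adjusted p under 0.01, open points for the rest, and crosses for the same gene without N replicate 4. Psme1 lies alone beyond a log2 fold change of 1 in either direction with all libraries, and the crosses of Calr and Hspa5 lie far above their points.

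The genes whose pattern over the 10 libraries was most like the mean standardised profile of the 7 members tested, among non-members of at least 5 TPM, were Cav1 (Pearson r 0.946), Efr3a (0.945), Hddc3 (0.938), F2rl1 (0.933) and Homer3 (0.932). These r are descriptions over 10 libraries that share lines. The profile was led by Tapbp, whose own r with it was 0.913, while H2-K1 stood at 0.477, Tap1 at 0.223 and Psmb9 at 0.03. Cav1, the caveolae protein, read 318 TPM in EY and 254 TPM in N on average, with a log2 fold change of 0.28 (adjusted p 0.295 by limma). None of the 5 genes passed the threshold between EY and N, with adjusted p-values from 0.154 to 0.310.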

How the data were processed

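The authors deposited 1 table of TPM for 10 libraries, with gene symbols and no identifiers or coordinates. Submitters' processing notes name STAR 2.7.9, SAMtools 1.7, HTSeq 0.13.5 and GRCm39; the study's methods also describe Kallisto TPM with the highest transcript kept per gene for enrichment, and which step made this table is not given in the sources used here. TPM sums to nearly the same total in each library, so counts, depth and counting error are unknown.

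Groups followed the genotype labels. limma 3.58.1 (R 4.3.3; eBayes with trend and robust) was fitted on log2(TPM + 1) for the 11630 rows that reached 1 TPM in 4 or more libraries, which understates changes of low genes, with Benjamini-Hochberg adjustment over all of them. A second fit had 4 line means. Calls used an adjusted p under 0.01 and a log2 fold change beyond 1. Ratios of proteasome subunits were tested by exact permutation over libraries. Code was tested on simulated data. Promoters came from RefSeq (GRCm38.p6), loci and 31-base words from GENCODE M21 (GRCm38), in Python 3.11.15 with Biopython 1.88; they were not mixed with GRCm39.

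The members and lists were chosen with earlier results of these data known. Text names all 9 members, list genes called over all EY or in all 3 lines, fixed pathway genes (Psmb5, Psmb6, Psmb7, Psme1, Psme2, Erap1, Calr, Canx, Pdia3, Nlrc5, Irf1, and 1 that is not reported here) and the 5 most alike genes; Blmh, Hspa5, H2-Q4, H2-T10, H2-T22, Mr1, Cd1d1, Nfyc and Nfyb were added after their values were seen. Alternatives varied the pseudocount, filter, scaling, variance model, blocks, lines and single libraries.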

Additional observations from a re-analysis of the deposited data

Results flagged for a closer look

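In N replicate 4, Calr read 702 TPM, far from the other 3 N libraries at 171 to 188 TPM, by Dixon's criterion for 4 samples. This was 1 of 42 groups of libraries examined for members and named pathway genes, where chance would flag about 2.1.

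B2m differed between the EY lines, by up to 0.51 on the log2 scale (EY4028 against EY4174, adjusted p 0.00193 by limma's F test between lines). For Tapbp the largest difference, between the same lines, was 0.75, with an adjusted p of 0.0200 between lines, which is under 0.05 but misses the threshold of 0.01 used for calls.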

How the results depend on the processing

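The count of members at an adjusted p under 0.01 was 2 over all libraries and fell to 0 with line as a random block, 0 with 1 mean per line and 1 when sample number was a replicate block, was 3 without EY4174 (with Tapbp), and was 2 under the other alternatives. The count of members called was 0 under every alternative run. The sample numbers do not pair the libraries (correlations of deviations -0.15 to 0.05); under that replicate block H2-K1 was 0.64 (adjusted p 0.00428), H2-D1 0.49 (0.0153) and Irf1 0.65 (0.0459), Calr passed at 0.98 (0.00702), and Psmb5 (0.051), Psme2 (0.038) and Pdia3 (0.13) turned positive. Without EY3960 Tap1 was 0.027; without EY4028 Psmb5 was 0.083; without EY4174 B2m was 0.027, Tap1 0.040, Psmb10 0.049, Psme2 0.061, Erap1 0.037 and Pdia3 0.065, none past the threshold. Leaving out each library in turn gave ranges of -0.18 to 0.070 for Tap1, -0.075 to 0.031 for Psmb10, -0.064 to 0.023 for Psmb5, -0.11 to 0.097 for Psme2 and -0.063 to 0.0997 for Pdia3, so these signs are not established. The range was -1.05 to -0.58 for the log2 ratio of Psmb9 to Psmb6, which passed an adjusted p of 0.05 without N replicate 3 (0.0357), and -0.33 to -0.19 for that of Psmb10 to Psmb7, which passed without EY replicate 2 (0.0238). For Psmb8 to Psmb5 it was 1.30 to 1.89, and with 1 TPM added to both genes the log2 ratio was 0.19 (adjusted p 0.305) in place of 1.62. Of 153 values of members under alternatives, 136 kept direction and side of the threshold, 5 lost it, 1 gained it and 11 turned sign. The cause of these changes was not tested. No scaling moved the median of all genes by more than 0.1 on the log2 scale. Depth is unknown, and 1 line for N limits each comparison.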
